A study of Mus musculus with 4 samples.

Results

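A set of 10 genes of cell-matrix adhesion was examined in mouse fibroblasts. It held the integrin chain genes Itgav, Itga5, Itgb1 and Itgb5, and Tln1, Vcl, Pxn, Zyx, Ptk2 and Ilk, which encode talin-1, vinculin, paxillin, zyxin, focal adhesion kinase and integrin-linked kinase. They were chosen by name, and their probes were found through the platform annotation. Of the 17711 genes named on the array, 9 of these 10 were found, with 20 probes between them. No probe listed there carried the symbol Ptk2, which was not analysed here. Of the 20 probes, 13 were detected on at least 1 array and 11 on all 4, at a detection p-value under 0.01 against the background of the same array.

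The cells were immortalized mouse fibroblasts in 4 groups with 1 array each. One culture received a control miRNA, one miR-141, one miR-200c, and one the transfectant only (its description says so, while its transfection field reads none). All cultures were lysed 48 h after transfection, the final 2 h of it in 400 µM hydrogen peroxide, so both controls were stressed too and no unstressed culture was compared. The labels do not say how the fibroblasts were immortalized, whether they were 1 clone, or which arm of each miRNA was given. With 1 array per group there was no replicate error and no test, and so few arrays limit the precision. A gene was called higher or lower with a miRNA at a fixed size instead, a difference of at least 1.5-fold (0.585 on the log2 scale) in the same direction against both controls.

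Integrins are pairs of an alpha and a beta chain that span the membrane and bind matrix proteins such as fibronectin and vitronectin. Talin and kindlin bind the tail of the beta chain and switch the pair on, and vinculin, paxillin, zyxin and the ILK complex then join the cluster to actin filaments and to signalling kinases. Fibroblasts use these focal adhesions to grip, pull on and sense their matrix. The miR-200 family, to which miR-141 and miR-200c belong, is known for holding cells in an epithelial state and for repressing the transcription factor genes Zeb1 and Zeb2. Its members fall into groups by the seed, the bases that pair with target transcripts.

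The mature 3p arms are shown because the seeds are what set the transfected miRNAs apart; capitals mark the seed, bases 2 to 8 from the 5′ end. The sequences are from RefSeq (GRCm38.p6), and the arm used in the cells is not given in the labels.
mmu-miR-141-3p: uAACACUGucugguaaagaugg
mmu-miR-200c-3p: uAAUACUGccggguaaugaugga
Both lie on the minus strand of chromosome 6, at chr6:124717917-124717938 and chr6:124718324-124718346. Their seeds differ by C4U, counted from 1 at the 5′ end of miR-141-3p. The seed of miR-141-3p is shared by miR-200a-3p, and that of miR-200c-3p by miR-200b-3p and miR-429-3p.

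Median raw signals ran from 42.8 to 49.5. With 11339 to 11747 of 46632 probes detected per array, these medians reflect background and not the brightness of detected probes. Between 6989 and 7152 genes were detected on each array. Zeb1, a known target of this family, stood at log2 signals of 9.05 with transfectant only, 8.78 with control miRNA, 7.64 with miR-141 and 6.50 with miR-200c, so it was lower on both miRNA arrays. Of 12 fibroblast markers, 6 were detected (Col1a1, Vim, Fn1, Pdgfrb, Dcn and S100a4), while Col1a2, Col3a1, Thy1, Pdgfra, Lum and Postn were below detection on every array. The summed raw signal of these 12 markers was 21348 with transfectant only, 13706 with control miRNA, 15680 with miR-141 and 12723 with miR-200c. Epithelial markers had 4 of 14 detected, and Cdh1 and Epcam were not among them. Their summed raw signal was 708, 607, 849 and 1373 in the same order, highest with miR-200c. These sums include undetected markers at background level, and they are not scaled between arrays, so they carry the brightness of each array. Vim, for example, read 14387.9 raw with transfectant only and 9419.7 with control miRNA, but log2 signals of 13.59 and 13.50 after normalization. With miR-200c the detected ones, Krt8, Krt7, Cldn4 and Krt19, were at least 5.66-fold, 5.57-fold, 4.51-fold and 3.11-fold higher than in both controls. Of the fibroblast markers, Pdgfrb, S100a4 and Col1a1 were lower with miR-200c by the rule given above, and Dcn was higher. With miR-141 Pdgfrb and S100a4 were lower, and Krt8, Krt7 and Cldn4 were higher, by the same rule. Pdgfrb was below detection with both miRNAs, at least 2.27-fold lower with miR-141 and at least 2.25-fold lower with miR-200c than in either control. None of 7 leukocyte or 4 platelet markers was detected on any array, and 2 of 7 endothelial and 1 of 5 muscle markers were. The part of these marker levels in the differences below was not tested. In RNA from whole cultures, fewer cells that express a gene and less of its RNA per cell cannot be told apart.

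With miR-200c, talin-1 was lower and integrin alpha V was higher than in both controls, and the other 7 measured genes stayed within 1.5-fold of both controls on the probe taken. With miR-141 none of the 9 genes passed the rule, and integrin alpha V came closest to it. Over the whole array 4.07% of 7202 genes considered were higher and 4.55% lower with miR-200c, while for miR-141 the shares were 2.37% and 3.14% of 7188 genes. A count of 1 gene of 9 in each direction is too small to set apart from that background. The median difference of the 9 genes from control miRNA was 0.09 for miR-141 and -0.13 for miR-200c, beside 0.02 and 0.01 for all genes considered. From transfectant only the medians were 0.11 and 0.21, beside 0.03 and 0.02, so with miR-200c the sign of the members' median depended on the control.

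**Figure D1:**
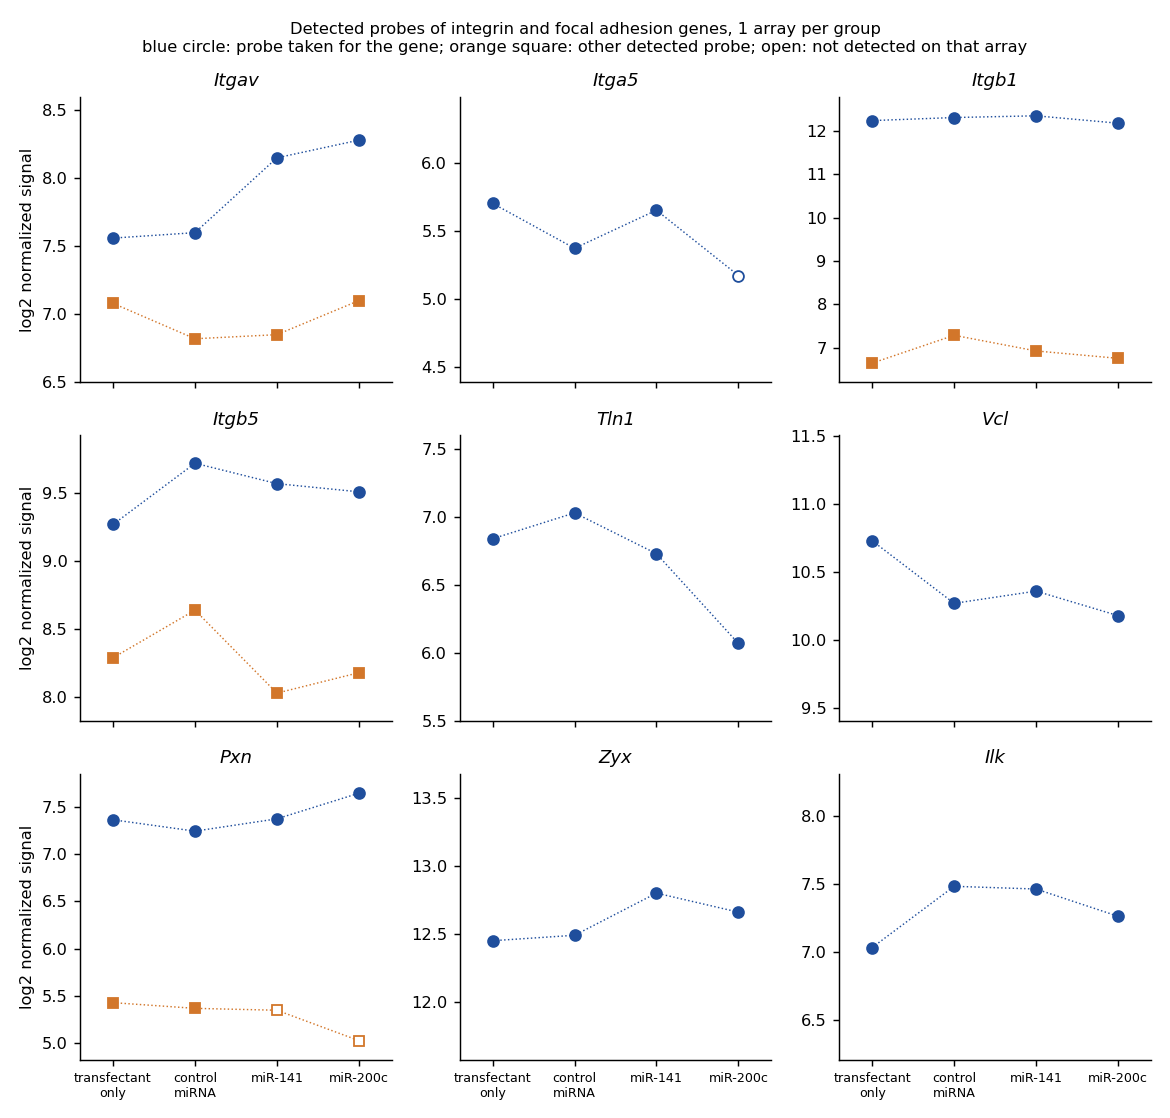
Log2 normalized signal (vertical axis) of each detected probe of the 9 measured genes on the 4 arrays (horizontal axis, 1 array per group, no error bars), with the probe taken for the gene in blue, other detected probes in orange and open symbols where a probe was not detected. Tln1 is lowest with miR-200c at 6.07, and of the Itgav probes only the brighter is high with both miRNAs.

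Itgav encodes the alpha V chain, which pairs with several beta chains, binds vitronectin and fibronectin, and can release active TGF-beta from its latent complex. Its brighter probe, ILMN_1236648, read log2 signals of 7.56 with transfectant only, 7.60 with control miRNA, 8.15 with miR-141 and 8.28 with miR-200c. Each miRNA, on its 1 array, read above each control, and the share of all genes ordered this way was not counted. With miR-200c the difference was 0.69 from control miRNA and 0.72 from transfectant only, or 1.61-fold and 1.65-fold. With miR-141 it was 0.55 and 0.58, just outside the 1.5-fold rule. For scale, 2.96% of genes were as far above both controls with miR-200c, and 2.69% with miR-141. The control arrays differed from each other with an SD of 0.30 over the 500 genes nearest to Itgav in level.

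A dimmer Itgav probe, ILMN_1238119, detected on all 4 arrays, did not show this pattern. It read 7.08 with transfectant only, 6.82 with control miRNA, 6.85 with miR-141 and 7.10 with miR-200c, so the highest control was level with the miR-200c array. Its difference with miR-200c was 0.28 from control miRNA and 0.02 from transfectant only, and with miR-141 it was 0.03 and -0.23. The annotation ties this probe to the RefSeq transcript of Itgav and the brighter one to a cDNA clone record of the same gene. The other 3 Itgav probes were below detection on every array. The higher value for Itgav thus rested on 1 of 2 detected probes, and the mean of both gave 0.49 from control miRNA and 0.37 from transfectant only.

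The alpha 5 chain, encoded by Itga5, pairs with beta 1 to form the classical fibronectin receptor. Its 1 probe was dim, at 5.70 with transfectant only, 5.37 with control miRNA, 5.65 with miR-141 and 5.17 with miR-200c. On the miR-200c array it was not detected (detection p-value 0.0193), so only bounds can be given there. With the lowest detected signal of that array in its place, the difference was 0.00 from control miRNA and -0.33 from transfectant only, beside -0.20 and -0.53 for the undetected signal itself. Where it was detected, the miR-141 array lay between the controls.

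Itgb1 encodes the beta 1 chain, the most widely shared partner of alpha chains. The brighter of its 2 detected probes read 12.23, 12.30, 12.34 and 12.17 with transfectant only, control miRNA, miR-141 and miR-200c. These values spanned a narrow range, with differences of 0.04 and 0.11 from the controls with miR-141 and of -0.13 and -0.06 with miR-200c. The dimmer Itgb1 probe read 6.65, 7.29, 6.93 and 6.76 in that order, and both miRNA arrays lay between the controls. On that probe control miRNA stood 0.64 above transfectant only, which is past 1.5-fold, while the brighter one differed by 0.07.

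Itgb5 encodes the beta 5 chain, which pairs with alpha V to bind vitronectin. Its brighter probe read 9.27 with transfectant only, 9.72 with control miRNA, 9.57 with miR-141 and 9.51 with miR-200c, so both miRNA arrays lay between the controls. The dimmer one read 8.29, 8.64, 8.03 and 8.18, with both miRNA arrays below both controls. On it miR-141 was at -0.61 from control miRNA but only -0.26 from transfectant only, and miR-200c at -0.46 and -0.11. Neither probe passed the rule.

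Tln1 encodes talin-1, the adaptor that activates integrins and bears the first mechanical link to actin. Its 1 probe, ILMN_1251985, gave raw signals of 185.5, 114.2, 130.2 and 90.7 with transfectant only, control miRNA, miR-141 and miR-200c, and was detected on all 4 arrays. After normalization it read 6.84, 7.03, 6.73 and 6.07, with the miR-200c array the lowest. The miR-200c difference was -0.96 from control miRNA and -0.77 from transfectant only, or 1.95-fold and 1.71-fold. Among all genes considered 2.58% were as far below both controls, and the SD between the controls was 0.35 over the 500 genes nearest in level. With miR-141 talin-1 was at -0.31 and -0.12, and 20.3% of genes were as far below both controls. The direct difference of miR-141 minus miR-200c was 0.65, past 1.5-fold, as 4.01% of 7285 genes were in that direction. Talin-1 was the only 1 of 9 genes past 1.5-fold between the miRNAs. Without background correction its difference with miR-200c was -0.65 and -0.51, and with the authors' processed values -0.64 and -0.53, so it then missed 1.5-fold against transfectant only.

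**Figure D2:**
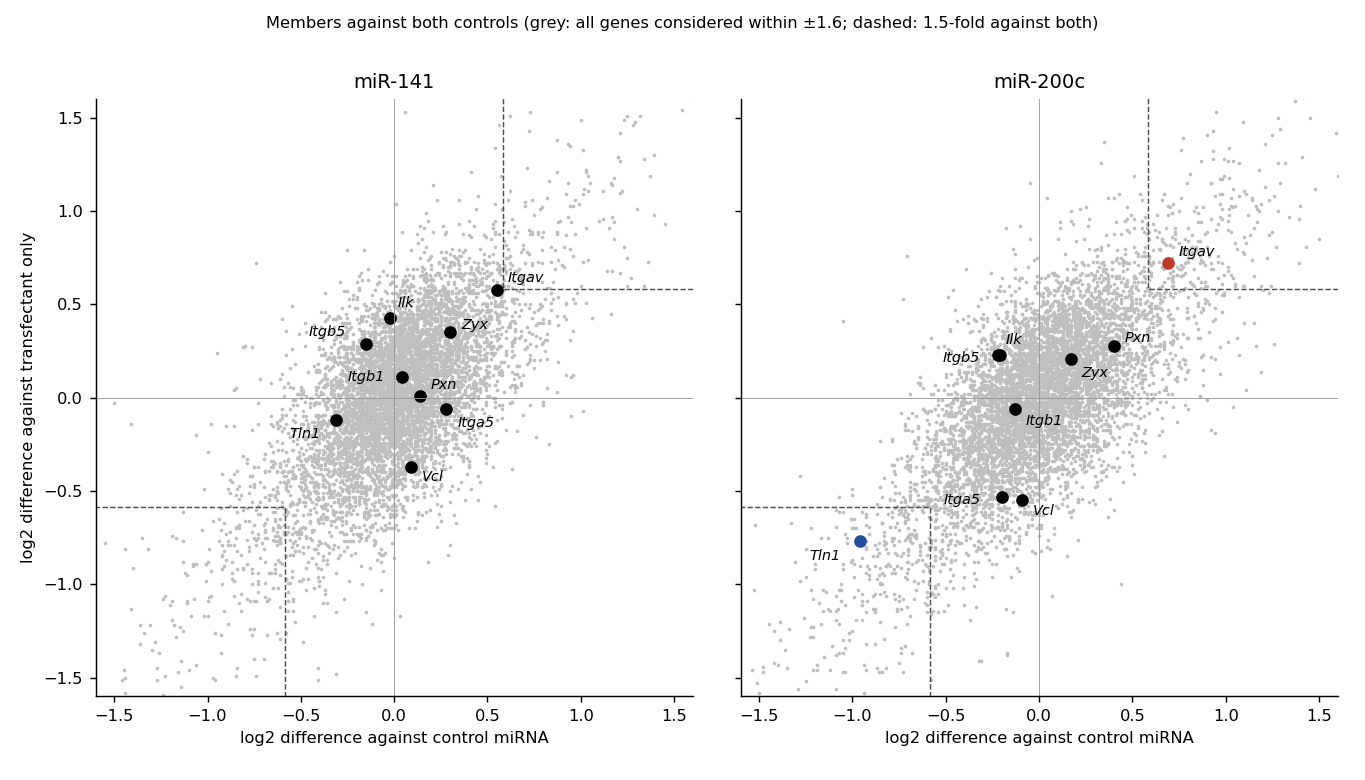
Log2 difference of each measured gene from control miRNA (horizontal axis) and from transfectant only (vertical axis) with miR-141 (left) and miR-200c (right), over all genes considered in grey. Dashed corners bound the 1.5-fold rule; with miR-200c Itgav (red, 0.69 and 0.72) and Tln1 (blue, -0.96 and -0.77) lie inside them, and with miR-141 none of the 9 genes does. Both axes share the miRNA array, so the slope of the grey points is not a result.

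Vcl encodes vinculin, which binds talin and actin and strengthens adhesions under force. Its 1 probe was bright and read 10.73 with transfectant only, 10.27 with control miRNA, 10.36 with miR-141 and 10.18 with miR-200c. That is, transfectant only stood above the other 3, which lay close together. Vinculin therefore differed by -0.37 with miR-141 and -0.55 with miR-200c from transfectant only, but by 0.09 and -0.09 from control miRNA. The controls themselves differed by -0.46, and 8.90% of genes were as far below in control miRNA.

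Pxn encodes paxillin, the scaffold that recruits kinases to adhesions. The brighter of its 2 detected probes read 7.36, 7.24, 7.37 and 7.64 with transfectant only, control miRNA, miR-141 and miR-200c, highest with miR-200c at 0.40 and 0.28 above the controls. The dimmer Pxn probe ran the other way, at 5.43, 5.37, 5.35 and 5.03, and was not detected with either miRNA. The 3 remaining Pxn probes were below detection on all arrays, and no direction is given for this gene.

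Zyx encodes zyxin, a LIM domain protein that moves from adhesions to stress fibres under strain. Its 1 probe was bright at 12.45 with transfectant only, 12.49 with control miRNA, 12.80 with miR-141 and 12.66 with miR-200c. Both miRNA arrays were above both controls, by 0.30 and 0.35 with miR-141 and by 0.17 and 0.21 with miR-200c. None of these differences reached 1.5-fold, and 9.24% of genes were as far above both controls with miR-141. With the authors' processed values the miR-200c difference from control miRNA turned to -0.07, since control miRNA then stood 0.40 above transfectant only.

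Ilk encodes integrin-linked kinase, a pseudokinase that binds the tail of beta chains together with PINCH and parvin. Its 1 detected probe read 7.03, 7.48, 7.46 and 7.26 with transfectant only, control miRNA, miR-141 and miR-200c. Transfectant only was lowest here, and the miRNA arrays lay between the controls. The controls differed by 0.45, more than either miRNA differed from control miRNA (-0.02 and -0.22). A second Ilk probe was below detection on every array.

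Between the controls none of the 9 genes passed 1.5-fold on the probe taken, where 3.16% of 7509 genes were higher and 4.51% lower. Their differences of control miRNA minus transfectant only ran from -0.46 for Vcl to 0.45 for Ilk, with a median of 0.04. For Itga5, Itgb5, Vcl and Ilk this difference between cultures without either miRNA was larger than the difference of either miRNA from control miRNA. For Itgav and Zyx the controls were close, at 0.03 and 0.04.

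The genes whose profile over the 4 arrays was nearest to a member that passed were looked up among 6484 genes detected on all arrays, by the distance between log2 values centred on each gene's mean. Nearest to Tln1 were Commd3 (distance 0.0448), Mcrip1 (0.0574) and Fez2 (0.0670), with differences of -0.91, -0.91 and -1.0 from control miRNA with miR-200c. Nearest to the brighter Itgav probe were Scly (0.0493), Letm1 (0.0768) and Ly6e (0.0833), at 0.66, 0.75 and 0.59. Each profile has only 4 points, and the likeness is a description.

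The rest of the adhesion machinery was read from 9 lists of integrins, activators, adaptors, actin linkers, ligands and related factors, with 120 genes on the array and 77 detected on at least 1 of them. On the probes taken, 12 of 74 genes considered were lower with miR-200c (16.2%, beside 4.55% of all genes) and 0 were higher (beside 4.07%). With undetected values at their bound 11 were lower (beside 4.01% of all genes), since Ptpn12 then fell short. With the mean of detected probes 10 were lower (beside 4.33% of all genes), since Git2 and Ptpn12 fell short. With miR-141 3 of 75 were lower (4.0%, beside 3.14%) and 1 was higher (1.33%, beside 2.37%). The lists were written with earlier results of these data known, so these shares describe them and test nothing. The median over the 77 detected genes was -0.08 with miR-200c and 0.03 with miR-141 from control miRNA, beside 0.00 and 0.01 for all detected genes. Without background correction 7 list genes were lower with miR-200c (beside 2.71% of all genes), all among the 12, and with the authors' processed values 7 were (beside 2.81%), also all among the 12.

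**Figure D3:**
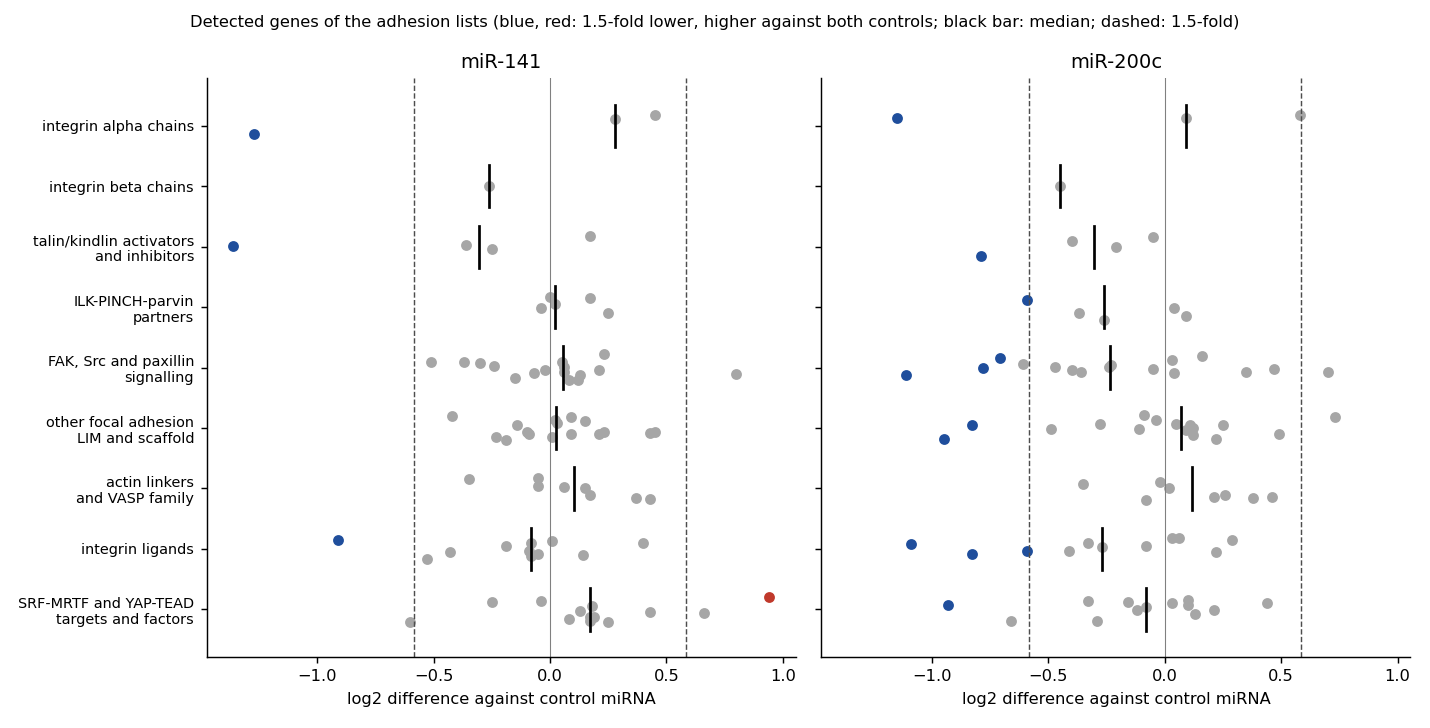
Log2 difference from control miRNA (horizontal axis) of each detected gene of the 9 adhesion lists (rows) with miR-141 (left) and miR-200c (right), with genes 1.5-fold lower against both controls in blue, 1.5-fold higher in red, and list medians as black bars. With miR-200c 12 genes in 7 of the lists are blue (11 with undetected values at their bound) and 0 are red, while with miR-141 3 are blue and 1 is red.

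Among the other integrin chains, 3 of 9 alpha genes on the array were detected. Itga11 encodes the alpha 11 chain, a collagen receptor of fibroblasts, and read 6.47 with transfectant only and 6.23 with control miRNA. It was below detection with both miRNAs, which puts it at least 1.83-fold lower with miR-141 and at least 1.82-fold lower with miR-200c than in either control. Itga3, a chain of laminin receptors, was higher without passing, at 0.45 and 0.39 from the controls with miR-141 and at 0.58 and 0.52 with miR-200c. Itga6, another laminin receptor chain, was at 0.09 and -0.38 with miR-200c. Itga1, Itga4, Itga7, Itga8, Itga9 and Itga2b were below detection on all arrays. Of 6 other beta chains only Itgb6, a partner of alpha V known from epithelium, was detected, on 2 arrays (5.76 with control miRNA and 5.50 with miR-141). Itgb3 and Itgb8, further partners of alpha V, were below detection throughout, as were Itgb2, Itgb4 and Itgb7.

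Of the integrin activators and inhibitors, 4 of 10 on the array were detected. Fermt2, which encodes kindlin-2, the partner of talin on the beta chain, read 11.08, 11.11, 10.86 and 10.32 with transfectant only, control miRNA, miR-141 and miR-200c. The miR-200c array was lowest, at -0.79 and -0.75 from the controls, and a second Fermt2 probe was at -0.64 and -0.93. With miR-141 Fermt2 was at -0.25 and -0.22. Kank2, which binds talin at the rim of adhesions, was lower with miR-141, at 10.04, 10.18, 8.82 and 9.96 in the same order, or -1.36 and -1.22 from the controls. Its second detected probe did not follow, at -0.03 from control miRNA with miR-141. Rap1b, a small GTPase upstream of talin, at -0.05 and Sharpin, an integrin inhibitor, at -0.40 from control miRNA were the highest and lowest genes of this list that did not pass with miR-200c. Sharpin was at -0.10 from transfectant only, and its second probe, detected on all 4 arrays, ran the other way at 0.13 and 0.34.

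The partners of ILK had 1 lower gene of 5 detected with miR-200c. Rsu1, which binds PINCH, was at -0.59 and -0.91, only just past the rule. Parva, which encodes alpha-parvin and links ILK to actin, was at -0.26 and 0.01 with miR-200c and at 0.25 and 0.52 with miR-141. Lims2, a PINCH gene, was at 0.09 from control miRNA with miR-200c, but it was below detection with control miRNA, so this is not a measured difference. Parvg, a parvin gene, read -0.37 but was below detection on the miR-200c array, and Lims1 was below detection on all.

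In FAK, Src and paxillin signalling 3 of 16 detected genes were lower with miR-200c and 0 with miR-141. Asap1, a GTPase-activating protein of focal adhesions, read 9.67, 9.45, 9.51 and 8.34 with transfectant only, control miRNA, miR-141 and miR-200c, and only the miR-200c array stood low, at -1.11 and -1.33. Git2, which binds paxillin, was at -0.78 and -0.75, but a second detected probe was at 0.44 from control miRNA. The third was the phosphatase gene Ptpn12, which was not detected on the miR-200c array. Its bound is at least 1.42-fold lower, short of the rule, and a second probe, detected on 1 array, was at -0.25 and -0.52. Src was at 0.04 and Bcar1, which encodes the docking protein p130Cas, at 0.16 from control miRNA. The adaptor gene Crkl was past 1.5-fold from control miRNA at -0.61 but not from transfectant only at -0.41. Crk, at 0.70 and 0.30, was the highest that did not pass, and since it was below detection with control miRNA the first of these values is not a measured difference. Ptk2b, the relative of the missing focal adhesion kinase gene, was below detection on all arrays.

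Of 16 detected LIM and scaffold genes, Csrp2 and Fhl1 were lower with miR-200c. Csrp2, a cysteine-rich LIM protein gene of smooth muscle, read 11.36, 11.12, 11.14 and 10.17 with transfectant only, control miRNA, miR-141 and miR-200c. Its differences with miR-200c were -0.95 and -1.19, while with miR-141 they were 0.02 and -0.22. Fhl1, a LIM protein gene of muscle, was at -0.83 and -1.29 with miR-200c and at 0.45 and 0.00 with miR-141. The zyxin relatives Lpp at -0.11 and Trip6 at -0.04 stayed near control miRNA with miR-200c, and the tensin gene Tns2 at -0.49 was the lowest gene that did not pass. Tns1 read 0.73 above control miRNA, where it was below detection, and 0.10 above transfectant only. All 8 detected actin linkers stayed inside the rule with both miRNAs. From control miRNA they ran from -0.35 for Arpc2 to 0.46 for Enah with miR-200c. The alpha-actinin gene Actn1 was at -0.08 and the filamin gene Flna at 0.26. From transfectant only, Enah was at -0.02 and Flna at -0.19. Another Enah probe, detected on all 4 arrays, was at 1.0 and 0.43 from the controls.

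Among 11 detected integrin ligands, Tgfb1 was lower with both miRNAs. Its latent product is bound and activated by alpha V integrins. It read 6.88 and 6.97 with transfectant only and control miRNA, 6.07 with miR-141 and 6.15 with miR-200c, so both miRNA arrays lay below both controls. The differences from the controls were -0.91 and -0.82 with miR-141 and -0.83 and -0.74 with miR-200c. Without background correction and with the authors' processed values Tgfb1 missed the rule with both miRNAs. With an offset of 50 it missed the rule with miR-200c. Tnc, the gene of tenascin-C, and Col1a1 passed the rule with miR-200c, at -0.59 and -0.98 and at -1.09 and -0.69. Fn1, which encodes the main ligand of alpha 5 beta 1, was at -0.33 and -0.45 with miR-200c and did not pass. Npnt at 0.29 and Ccn1 at -0.41 were the highest and lowest of the others. Vtn, the vitronectin gene, was below detection.

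The last list covered SRF, YAP and their targets, since vinculin and other adhesion genes are known targets of SRF and its cofactors. Acta2, smooth muscle actin, was lower with miR-200c at -0.93 and -0.94, with its other 2 detected probes at -1.68 and -1.46 from control miRNA. Ankrd1, a YAP target, was higher with miR-141 at 0.94 and 1.35, while with miR-200c it was at 0.21 and 0.62. Srf stood at 0.13 from control miRNA with miR-141 and at -0.12 with miR-200c. Yap1 was at -0.60 and -0.56 with miR-141, just short of the rule against transfectant only. Tpm2 at 0.44 and Amotl2 at -0.66 from control miRNA were the ends of the rest with miR-200c. A second Tpm2 probe, detected on all 4 arrays, ran the other way with miR-200c, at -0.85 and -0.93, so no direction is given for this gene.

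Set directly against miR-200c, miR-141 had 10 list genes higher and 2 lower, beside 4.01% and 4.53% of all genes. Of the 10, Fhl1 differed by 1.29, Asap1 by 1.18, Acta2 by 1.01, Tnc by 0.99 and Csrp2 by 0.97. The others were Amotl2 at 0.84, Git2 at 0.83, Ankrd1 and Crkl at 0.73 and Rsu1 at 0.61. The lower ones were Kank2 at -1.15 and Yap1 at -0.63. Second probes of Git2 and Crkl did not follow. From control miRNA, with miR-141 and miR-200c, they were at 0.30 and 0.44 for Git2 and at 0.15 and 0.02 for Crkl. This comparison shares no control array, but it rests on 1 array for each miRNA.

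The promoter windows of 8 of the 10 genes were found in a RefSeq table (GRCm38.p6), each running from 250 bases before the gene's start to 50 after it. They were searched on both strands for the CArG box, to which SRF binds, for CACCTG, to which ZEB proteins bind, and for GGAATG, to which TEAD proteins bind, none of which overlapped another. The Vcl window, from the plus strand at chr14:20929148-20929447, held a CArG box 227 bases before the start and 1 GGAATG. It is printed with the one of Tln1, the gene that was lower with miR-200c, from the minus strand at chr4:43562534-43562833. Capitals mark the matches.
Vcl: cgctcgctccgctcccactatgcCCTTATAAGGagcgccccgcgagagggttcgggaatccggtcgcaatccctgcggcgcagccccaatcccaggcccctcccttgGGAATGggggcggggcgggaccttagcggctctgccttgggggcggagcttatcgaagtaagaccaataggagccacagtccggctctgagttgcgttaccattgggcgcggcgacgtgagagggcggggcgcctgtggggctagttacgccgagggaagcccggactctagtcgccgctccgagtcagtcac
Tln1: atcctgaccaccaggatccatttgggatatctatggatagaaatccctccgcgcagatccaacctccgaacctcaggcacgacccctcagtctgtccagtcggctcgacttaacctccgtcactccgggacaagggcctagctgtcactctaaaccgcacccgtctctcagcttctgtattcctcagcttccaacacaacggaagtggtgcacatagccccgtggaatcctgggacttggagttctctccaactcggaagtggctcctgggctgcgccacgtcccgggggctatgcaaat
A CArG box was found in 1.63% of 32851 windows of this length in the table, CACCTG in 20.2% and GGAATG in 14.7%. The windows of Tln1 and Itgav held none of the 3 motifs, nor did those of Itga5, Zyx and Ilk. Itgb5 had 1 CACCTG and Itgb1 had 1 GGAATG. A match describes these letters only, and its part in the levels was not tested.

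**Figure D4:**
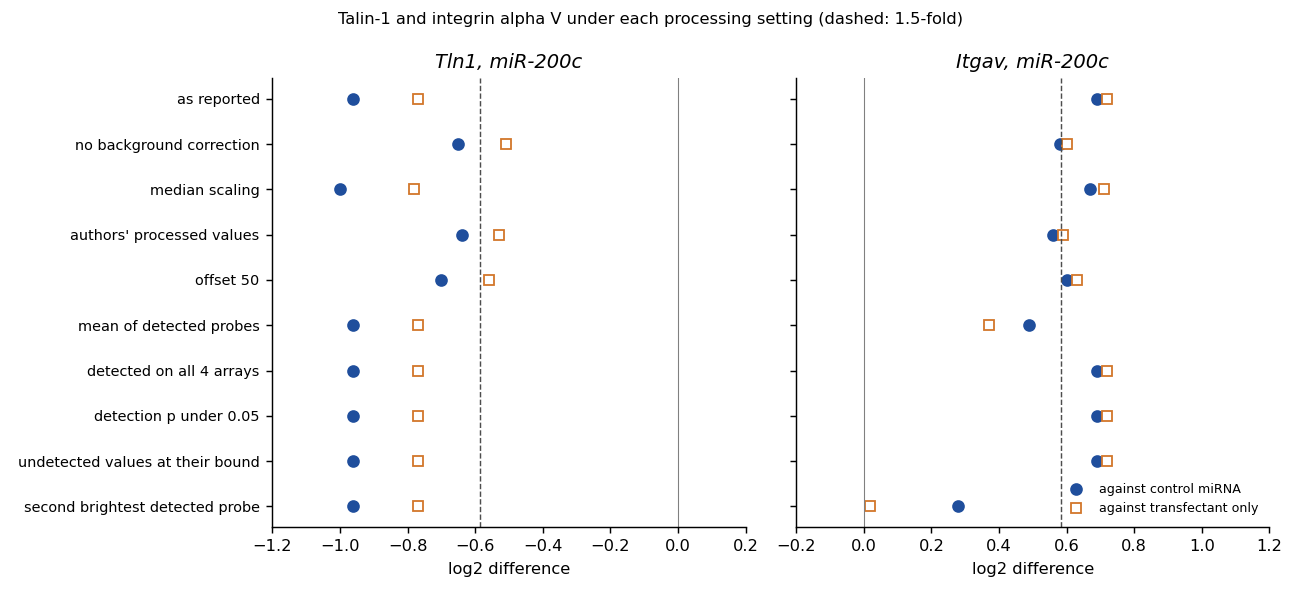
Log2 difference of Tln1 (left) and Itgav (right) with miR-200c (horizontal axis) from control miRNA (filled circles) and transfectant only (open squares) under each processing setting (rows), with the 1.5-fold size dashed. Tln1 stays below 0 at -1.0 to -0.64 from control miRNA, and Itgav runs from 0.28 to 0.69, lowest on its second detected probe.

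Across the settings in the plot of talin-1 and alpha V, Tln1 stayed below both controls with miR-200c. Itgav stayed above control miRNA, but its second probe was level with transfectant only (0.02). Neither gene kept its 1.5-fold call in every setting. Tln1 has 1 probe, so the probe settings could not move it. Talin-1 missed the call without background correction, with the authors' processed values and with a larger offset. Alpha V missed it without background correction, with the authors' processed values, with the mean of its detected probes and on its second probe.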

How the data were processed

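Biotinylated cRNA made from the total RNA of 4 cultures was run on Illumina arrays, per the labels' protocols. The deposited non-normalized table holds linear bead intensities, averaged per probe and not scaled between arrays, per the file headers, with no bead-level error. A detection p-value stands beside each intensity in that deposited table. The submitters' processing notes name GenomeStudio, without version or settings. The authors' processed intensities, deposited separately, were set against the raw ones: each column was a straight line of its own array to within 0.0113 intensity units, so they are linear and not centred by gene. Slopes ran from 0.692 to 1.51 and column medians were 46.3, 44.7, 45.0 and 45.8, and how the lines were set is not known from the sources used here.

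The neqc function of limma 3.58.1 (R 4.3.3) corrected background by normexp, using the detection p-values, added an offset of 16, quantile-normalized all 4 arrays and gave log2 values. Quantile normalization removes a shift shared by most genes. A larger offset shrinks the differences of dim probes, while the background correction widens them. For Tln1 with miR-200c the difference from control miRNA was -0.96 as reported and -0.65 without the correction. Tables and plots were made with pandas 2.3.3, numpy 2.4.6 and matplotlib 3.10.9 in Python 3.11.15. Of 46632 probes, 29976 had 1 gene symbol, 10 several and 16646 none in the platform annotation; 29921 were found in a RefSeq table of GRCm38.p6 and 0 were renamed. A gene took its probe with the highest mean. It was considered for a miRNA when detected with it, or in both controls, and for a pair of arrays when detected on either. A value below detection gives a fold only as "at least", against the higher of its own signal and the lowest detected one of its array (log2 5.29 to 5.37). Of each list, the text names genes that passed with either miRNA and the highest and lowest that did not pass with miR-200c. The members and lists were chosen with earlier results of these data known. Alternatives changed the background correction, scaling, offset, source table, probe, detection and fold.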

Additional observations from a re-analysis of the deposited data

How the results depend on the processing

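With miR-200c the count of higher members went from 1 to 0 without background correction, with the authors' processed values, with the mean of detected probes, at 2-fold and on the second brightest probes. The count of lower members went from 1 to 0 without background correction, with the authors' processed values, with an offset of 50 and at 2-fold, as did the 1 member higher with miR-141 than with miR-200c. Tln1 with miR-200c was then at -0.65, -0.64 and -0.70 from control miRNA, and at 0.43, 0.43 and 0.47 for miR-141 minus miR-200c. Itgav with miR-200c was at 0.58 without background correction, 0.56 with the authors' values, 0.49 with the mean of probes and 0.28 on the second probe. Second probes, chosen after seeing the data, also moved Itgav to 0.03, Itgb1 to -0.36 and Itgb5 to -0.61 with miR-141, Itgb1 to -0.53 and Pxn to -0.34 with miR-200c, and Itgb1 to 0.64 between the controls. The mean of probes put Pxn at 0.03 with miR-200c. Between the controls, Itga5 was at 0.05 with median scaling, and Itgb1 and Zyx at 0.37 and 0.40 with the authors' values. The cause of these shifts was not tested. Of 319 alternative values of the members' differences, 299 stayed on the same side of the rule and within 0.30, and 0 called values changed sign. Some of the 319 could not move. The stricter and looser detection settings kept the same signals, and a gene with 1 detected probe keeps its value under the probe settings. The 299 is therefore not a measure of how robust the values are.

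The 12 list genes lower with miR-200c became 7 without background correction, 7 with the authors' values and 7 with an offset of 50, while the share of all genes went from 4.55% to 2.71%, 2.81% and 2.89%. Rsu1, Git2, Ptpn12, Tnc and Tgfb1 fell short each time. Against control miRNA alone, a choice made after seeing the data, miR-141 had 3 list genes higher and 4 lower (beside 4.31% and 4.82% of all genes), and 2 higher and 14 lower with miR-200c (beside 6.83% and 6.89%). Against transfectant only alone, 2 were higher and 5 lower with miR-141 (beside 5.76% and 7.97%), and 2 higher and 13 lower with miR-200c (beside 7.04% and 9.46%). All 106 alternative medians of the lists moved by less than 0.30. Median scaling shifted all detected genes by 0.38 and 0.37 from control miRNA and by -0.35 and -0.36 from transfectant only, and its values are relative to that shift. No paired analysis was possible because each group had 1 array. Tln1, Itga5 and the dimmer Pxn probe had signals close enough to background that the correction and the offset bear on the size of their differences.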
